A study of Mus musculus with 15 samples.

Results

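The suppressor of cytokine signalling (SOCS) family comprises 8 genes, Socs1 to Socs7 and Cish, and the crosslink sites of tristetraprolin (TTP) in these genes are described here. The members were taken by gene symbol, and their sites were all sites on the sense strand between the ends of each gene in GENCODE release M21 (GRCm38, which is mm10). Over 6 lists of crosslink sites, 80 sites with 152 cDNAs lay in these genes, out of 162273 sites in all. Of these, 77 sites with 148 cDNAs fell into 3′UTRs. The antisense strand of the 8 genes held 0 cDNAs.

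The lists came from individual-nucleotide resolution crosslinking and immunoprecipitation (iCLIP), in which UV light links a protein to RNA and the end of each cDNA marks the linked nucleotide. The cells were bone marrow-derived macrophages of C57BL/6 background that lacked endogenous TTP (Zfp36 knockout), had been immortalised by transduction with Myc and Ras oncogenes, and carried a doxycycline-inducible retroviral vector for GFP-TTP or GFP-TTP-AA, in which alanines replace the serines that the kinase MK2 phosphorylates. All cells received doxycycline for 6 h, and they received no lipopolysaccharide (LPS, 0 h) or LPS for 1 h or 4 h. Each list pooled the libraries of a group, with 2 libraries for either protein at 0 h and at 4 h. At 1 h, 4 libraries were pooled for TTP and 3 for the mutant. The lists are therefore sums without replicate values, and each test below compares pooled lists and not conditions.

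SOCS proteins are inducible feedback inhibitors of cytokine signalling. Cytokine receptors activate JAK kinases and STAT transcription factors, the STATs induce SOCS genes, and the SOCS proteins bind the receptor or the kinase through an SH2 domain and recruit a ubiquitin ligase through the SOCS box. In macrophages, SOCS1 limits interferon signalling and SOCS3 limits signalling by interleukin-6 through the receptor chain gp130. TTP binds AU-rich elements (AREs) in 3′UTRs, for which the pentamer AUUUA and the heptamer UAUUUAU are the usual core motifs, and it promotes decay or blocks translation of the bound mRNA.

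The sites with the most cDNAs lay in Socs3 on chromosome 11. The following stretches of 29 nt on the transcript strand show sites of the family. They come from GENCODE transcripts on GRCm38, and every AUUUA, written ATTTA, is in capitals. In each, the crosslinked nucleotide is base 15.
Socs3, 1404 nt after the stop codon, chr11:117966135-117966163, minus strand: gcacatatATTTAtATTTAtactcagaaa
Socs3, 1442 nt after the stop codon, chr11:117966097-117966125, minus strand: tcagtaATTTAtaataaaagagcactatt
Socs5, 862 nt after the stop codon, chr17:87136092-87136120, plus strand: tggatgacagtATTTAtctctttgttgta
Socs7, 4723 nt after the stop codon, chr11:97398067-97398095, plus strand: ttttgtgcttaATTTAttaaaatagttgc
Socs1, 361 nt after the stop codon, chr16:10783858-10783886, minus strand: agaatatcctattttatatttttacagcc
The first Socs3 stretch holds a pair of overlapping UAUUUAU heptamers, and the second holds 1 AUUUA followed by AAUAAA, the hexamer that directs cleavage and polyadenylation. In these letters, the Socs5 stretch holds 1 heptamer, the Socs7 stretch holds 1 pentamer, and the Socs1 stretch is rich in A and U without a pentamer. The Socs7 stretch held 5 cDNAs over the 6 lists. The 29 nt around 4759 nt of Socs7, not printed here, held 7 and contain no whole pentamer. Of all windows of 29 nt in annotated 3′UTRs, 4.54% held the pentamer on the transcript strand and 0.660% the heptamer, each of which also contains the pentamer.

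The plot of 3′UTR cDNAs by gene shows that Socs3 held most of the signal of the family. Summed over the 6 lists, Socs3 had 119 of the 148 3′UTR cDNAs (80.4%), followed by Socs7 with 15, Socs1 with 8, Socs5 with 4 and Socs6 with 2. Socs2, Socs4 and Cish had 0 sites in every list. By list, the 3′UTRs of the family had 2 cDNAs with TTP and 3 with TTP-AA at 0 h, 5 with TTP and 127 with TTP-AA at 1 h, and 2 with TTP and 9 with TTP-AA at 4 h. Most cDNAs of the family thus came from TTP-AA at 1 h, where the number of 3′UTR cDNAs in all was also largest. That list had 93510 3′UTR cDNAs among 174397 cDNAs (53.6%), compared with 9558 of 99263 (9.63%) for TTP at 1 h. The other lists held between 906 and 6008 3′UTR cDNAs. Because the lists contain only crosslink positions below a false-discovery rate of 0.05, a gene at 0 had no listed site, and cDNAs under that threshold are not counted. RNA levels were not measured in these files, so more binding per mRNA and more mRNA cannot be told apart.

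**Figure D1:**
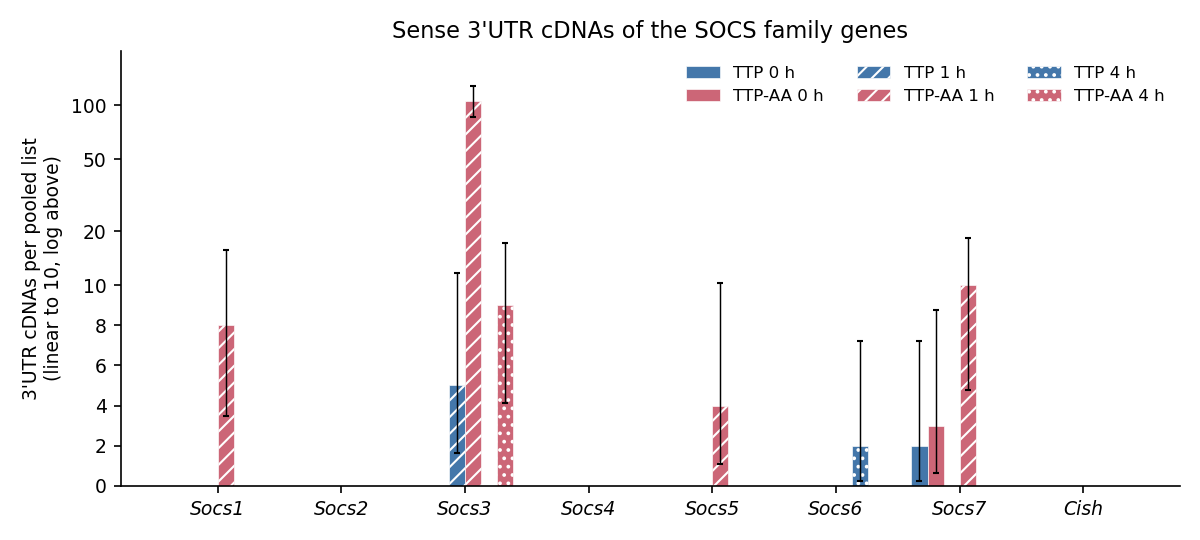
Sense 3′UTR cDNAs (y axis, linear up to 10 and logarithmic above) of the 8 SOCS family genes (x axis) in the 6 pooled lists, where colour gives the protein, the hatching gives the time of LPS and the error bars are exact Poisson 95% intervals that cover counting error only. Socs3 in the TTP-AA list at 1 h stands at 105 cDNAs, whereas every other bar is at 10 or below.

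Socs3 (ENSMUSG00000053113.3) lies on chromosome 11 from 117966079 to 117970047 on the minus strand, and its 3′UTR of 1474 nt occupies 117966079 to 117967552. The gene had 0 cDNAs with TTP and 0 with TTP-AA at 0 h, 5 with TTP and 105 with TTP-AA at 1 h (Poisson 95% interval 85.9 to 127), and 0 with TTP and 9 with TTP-AA at 4 h (interval 4.12 to 17.1). The lists with Socs3 sites were thus those after LPS, with TTP-AA above TTP in number at both times. All of these cDNAs fell into the 3′UTR, and the CDS, the 5′UTR and the intron had 0. In the TTP-AA list at 1 h, Socs3 ranked 114 of 4468 genes by 3′UTR cDNAs. Its density of 71.2 cDNAs per kb of 3′UTR compared with a median of 6.10 over genes with at least 1 cDNA. In the TTP-AA list at 4 h it ranked 16 of 198 genes, tied with 1 other gene, and in the TTP list at 1 h it ranked 331 of 1295.

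The cDNAs of Socs3 were packed into the end of the 3′UTR. All 119 lay between 1377 and 1450 nt after the stop codon (chr11:117966103-117966176), which is a stretch of 74 nt within the last 100 nt, and the last 100 nt made up 6.78% of the 3′UTR. In the TTP-AA list at 1 h, the 105 cDNAs fell on 39 sites that spanned 69 nt. Among 227 genes with at least 50 such cDNAs and a 3′UTR of at least 1000 nt, the median span was 1503 nt and 2 genes, Agpat1 and Socs3, had a span of 69 nt or less. Socs3 was the only gene of the 227 with all cDNAs in the last 100 nt, where the median gene had 1.91%. This measure was chosen after the positions were seen, and it is given as a description.

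Within this stretch, the TTP-AA lists of 1 h and 4 h differed in position, as the map of Socs3 sites shows. The 5 TTP cDNAs were too few to tell TTP from TTP-AA at 1 h. The 5 TTP cDNAs at 1 h lay from 1397 to 1404 nt, on the overlapping heptamers at 1397 to 1409 nt. The TTP-AA list at 1 h had its highest site, with 14 cDNAs, at 1404 nt (position 117966149). A further peak of 10 cDNAs at 1433 nt lay next to the third pentamer of the stretch, at 1434 to 1438 nt. The 9 TTP-AA cDNAs at 4 h lay from 1431 to 1450 nt, with the highest site of 3 cDNAs at 1442 nt, inside the AAUAAA hexamer at 1440 to 1445 nt. At 1 h, the 29 nt around 1404 nt held 5 cDNAs of TTP and 67 of the mutant, and at 4 h they held 0 of the mutant. The 29 nt around 1442 nt held 0 cDNAs of TTP and 27 of the mutant at 1 h, and all 9 of the mutant at 4 h.

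**Figure D2:**
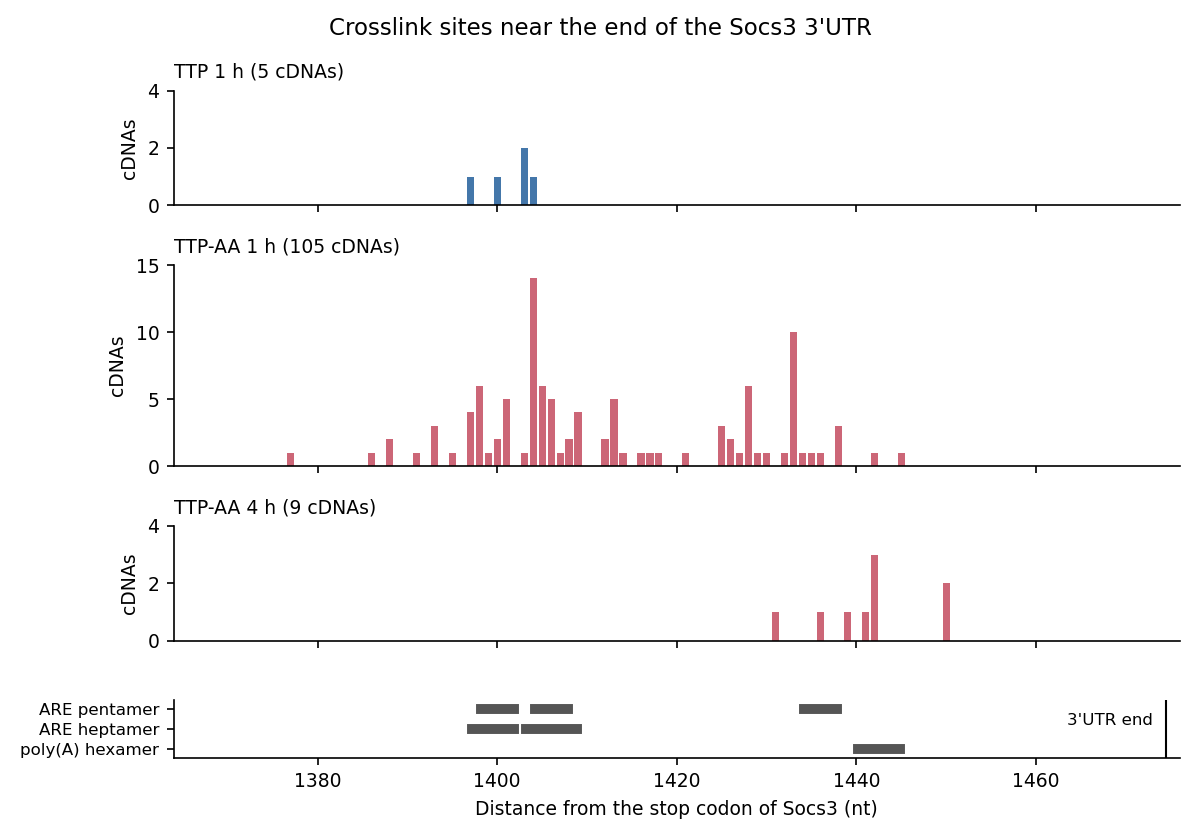
cDNAs per crosslink site (y axis, with a longer scale for TTP-AA at 1 h) against the distance from the Socs3 stop codon in nt (x axis) for the 3 lists with Socs3 sites, with the ARE pentamers, ARE heptamers and the poly(A) hexamer in the lowest panel. The 4 TTP sites at 1 h, with 5 cDNAs in all, sit on the heptamers. The TTP-AA sites at 1 h extend from 1377 to 1445 nt, and the TTP-AA sites at 4 h run from 1431 to 1450 nt.

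The distance to motifs gave the same picture in numbers. A pentamer lay wholly within 20 nt of 5 of 5 TTP cDNAs and of 104 of 105 TTP-AA cDNAs at 1 h (99.0%, Wilson 95% interval 94.8 to 99.8), and of 9 of 9 TTP-AA cDNAs at 4 h. Of the nucleotides in the Socs3 3′UTR, 7.46% were this close to a pentamer. A heptamer lay within 20 nt of 5 of 5 TTP cDNAs at 1 h (interval 56.6 to 100). The same held for 71 of 105 TTP-AA cDNAs at 1 h (67.6%, interval 58.2 to 75.8) and for 0 of 9 TTP-AA cDNAs at 4 h (interval 0 to 29.9). For AAUAAA, a motif added after the sites were seen, the numbers were 0 of 5 (interval 0 to 43.4), 33 of 105 (31.4%, interval 23.3 to 40.8) and 9 of 9 (interval 70.1 to 100). For both motifs, the interval of TTP at 1 h contained the TTP-AA share at 1 h. Thus the 4 h cDNAs of TTP-AA lay near the hexamer and the third pentamer, and not within 20 nt of the heptamers. The hexamer and that pentamer are too close to be told apart with this window. A pentamer lay within 10 nt of 7 of the 9. In all 3′UTRs, 17.1% of TTP-AA cDNAs at 4 h lay within 20 nt of AAUAAA, likewise more than the 4.47% at 1 h. Before LPS this TTP-AA share was already 10.5%, so the 1 h list had the lowest value for the mutant. With wild-type TTP the direction was opposite, since 5.53% lay this close before LPS, 1.91% in the 1 h list and 1.01% in the 4 h list. The headers of the 1 h lists named a different treatment of regions during peak calling than those of the other lists, so time and peak calling cannot be told apart.

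All 4 TTP 3′UTR sites of the family at 1 h, which were those of Socs3, coincided to the nucleotide with a TTP-AA site of that time. TTP-AA sites lay on most nucleotides of the TTP span from 1397 to 1404 nt, so little can be read from this coincidence. The other 3 TTP sites, 2 in the Socs5 5′UTR and 1 in a Socs7 intron, had no TTP-AA counterpart, since the 61 TTP-AA sites all lay in 3′UTRs. In the other direction, 23 of these 61 sites (37.7%, interval 26.6 to 50.3) had a TTP site within 15 nt. All 6 TTP-AA sites at 4 h had a TTP-AA site at 1 h within 15 nt, and 2 of them coincided with one to the nucleotide.

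Whether Socs3 differed between the proteins at 1 h depended on what its cDNAs were compared with. As a share of all 3′UTR cDNAs, Socs3 made up 0.0523% with TTP and 0.112% with TTP-AA, an odds ratio of 2.15 (95% interval 0.891 to 6.75). This difference did not pass the threshold (two-sided Fisher exact test, Benjamini-Hochberg adjusted p = 0.391 over 2065 genes with at least 10 cDNAs), where 6.39% of the genes tested did. With each site counted once, 4 TTP and 39 TTP-AA sites, the log2 share ratio of Socs3 turned from 0.97 to -0.041. Scaled to 1000000 cDNAs of the whole list, Socs3 had 50.4 cDNAs with TTP and 602 with TTP-AA, an odds ratio of 12.0 (4.97 to 37.6), which passed (Fisher exact test, adjusted p = 9.34e-14). On that scale, however, 84.9% of the genes tested were higher with TTP-AA.

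Over time with TTP-AA, Socs3 rose from 0 cDNAs at 0 h to 105 at 1 h, a change that passed on the scale of 3′UTR cDNAs (Fisher exact test, adjusted p = 0.0303 over 2052 genes), as 2.73% of the genes did in this direction. Socs3 met the minimum of 10 cDNAs through the 1 h list alone. Without a minimum the adjusted p was 0.0467 (Fisher exact test). Socs3 entered that test through the 1 h list alone as well, so it does not remove this selection. The change also passed per all cDNAs (Fisher exact test, adjusted p = 6.82e-07), as 22.7% of the genes did in this direction. The call was lost when each site counted once (Fisher exact test, adjusted p = 0.399) or when only sites with at least 2 cDNAs were used (Fisher exact test, adjusted p = 0.153). From 1 h to 4 h, the share of Socs3 among TTP-AA 3′UTR cDNAs went from 0.112% to 0.900% (Wilson interval 0.474 to 1.70), an odds ratio of 8.08 (3.58 to 16.0). This increase passed the threshold (Fisher exact test, adjusted p = 6.37e-04 over 1980 genes), as 3.03% of the genes did in this direction. The call was lost with sites of at least 2 cDNAs (Fisher exact test, adjusted p = 0.0682) and with whole gene bodies (log2 ratio 0.40, Fisher exact test, adjusted p = 0.842). Scaled to 1000000 cDNAs of the list, the direction turned, with 602 at 1 h and 470 at 4 h and an odds ratio of 0.780 (0.347 to 1.54) that did not pass (Fisher exact test, adjusted p = 0.650). On that scale, 13.7% of the genes were lower at 4 h and 0.253% were higher.

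**Figure D3:**
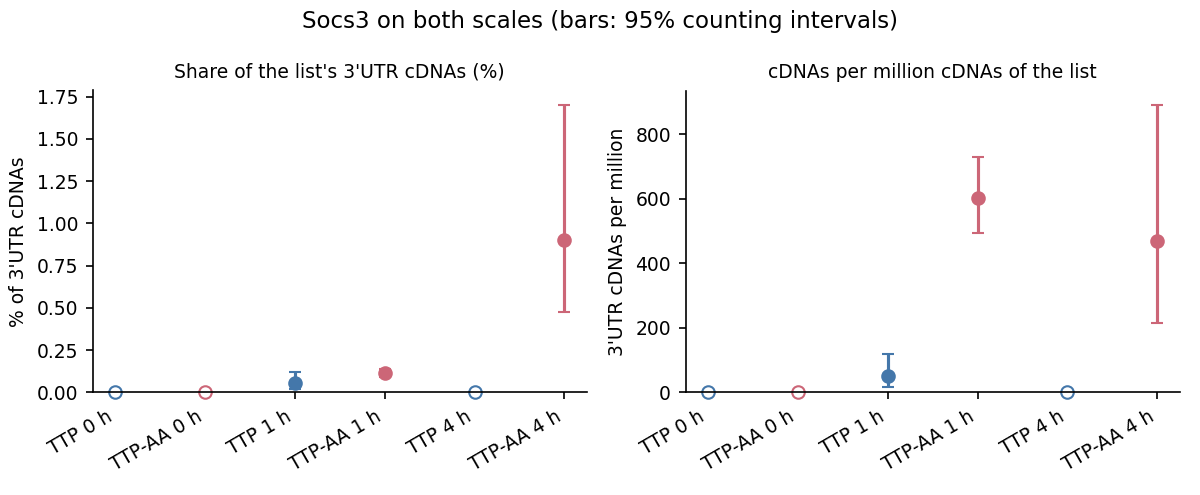
Socs3 3′UTR cDNAs in the 6 pooled lists (x axis) as a percentage of the 3′UTR cDNAs (left) and scaled to 1000000 cDNAs of the list (right), where filled points have 95% counting intervals and open points are lists without a Socs3 site. TTP-AA stands at 0.112% at 1 h and 0.900% at 4 h on the left, but at 602 and 470 on the right.

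At 4 h, the comparison of the proteins rested on 9 TTP-AA cDNAs and 0 TTP cDNAs of Socs3, which is below the minimum of 10 for testing. With a minimum of 5, TTP-AA was higher (Fisher exact test, adjusted p = 0.0171), as were 30.8% of the genes tested. Socs3 met this minimum through the TTP-AA list alone, and without a minimum it did not pass (Fisher exact test, adjusted p = 0.0657). With TTP alone, Socs3 had 0, 5 and 0 cDNAs at 0 h, 1 h and 4 h, which is also below the minimum of 10. With a minimum of 5, neither step passed (Fisher exact test, adjusted p = 0.422 for 1 h against 0 h and 1 for 4 h against 1 h). Socs3 entered both steps through the 1 h list alone. The second test could not show a fall, because the TTP list at 4 h held only 906 3′UTR cDNAs (odds ratio interval 0 to 11.5).

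The rule that names the genes with the nearest profile over the 6 lists, by Euclidean distance in log2 cDNAs scaled to list size, gave Nfe2l2 (distance 1.00), Mdh2 (1.15) and Sh3bgrl (1.54) for Socs3, among 1272 genes with a median distance of 5.89. Nfe2l2 encodes the antioxidant transcription factor NRF2 and had 10 cDNAs with TTP and 132 with TTP-AA at 1 h, and 8 with TTP-AA at 4 h. Mdh2, a mitochondrial malate dehydrogenase, had 10, 70 and 7 in these lists, and Sh3bgrl had 4, 76 and 3. All of them had 0 in the lists of 0 h and in the TTP list of 4 h, as did Socs3.

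Socs1, the close relative of Socs3 that also inhibits JAK kinases directly, had 8 cDNAs, all with TTP-AA at 1 h and each at a site of its own. The gene (ENSMUSG00000038037.5, chromosome 16, 10782240 to 10785536, minus strand) ranked 2119 of 4468 genes in that list, with 181 genes at the same count. Its 3′UTR of 1993 nt contained 0 pentamers. Of the cDNAs, 3 lay from 64 to 76 nt and 5 from 361 to 368 nt after the stop codon. The former region is shown here because it is AU-rich without a pentamer, like the stretch around 361 nt printed above.
Socs1, 64 nt after the stop codon, chr16:10784155-10784183, minus strand: tattattaattattattatttttctggaa
The sites at 361 to 368 nt lay upstream of an AAUAAA at 385 to 390 nt. With 8 cDNAs over both 1 h lists, Socs1 was below the minimum for testing.

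Socs7, a broadly expressed member whose protein has been linked to insulin signalling, had sites before LPS. It had 2 cDNAs with TTP and 3 with TTP-AA at 0 h, 0 with TTP and 10 with TTP-AA at 1 h, and 0 in both lists of 4 h. The intervals of these counts were wide, for example 4.80 to 18.4 for the 10 cDNAs, and all 10 were at sites with a single cDNA. The gene (ENSMUSG00000038485.5, chromosome 11, 97362551 to 97398542, plus strand) has a 3′UTR of 5184 nt in 2 exons, and 12 of the 15 cDNAs lay from 4721 to 4761 nt after the stop codon (chr11:97398079-97398119), around the last pentamers at 4720 and 4744 nt. The TTP cDNAs at 0 h lay at 4723 nt and the TTP-AA cDNAs at 0 h from 4759 to 4761 nt. The other 3, with TTP-AA at 1 h, lay from 4580 to 4582 nt without a pentamer within 50 nt. A further 2 cDNAs, at 1 intronic site at position 97365688, came from the TTP list at 1 h.

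The test for Socs7 between the proteins at 1 h did not pass on the scale of 3′UTR cDNAs (Fisher exact test, adjusted p = 0.731), and it passed per all cDNAs (Fisher exact test, adjusted p = 0.0212), as most genes did. Socs7 met the minimum of 10 cDNAs through the TTP-AA list alone. On the scale of 3′UTR cDNAs it could not pass, because even 65 TTP-AA cDNAs with 0 TTP cDNAs were too few. With TTP-AA its share went from 0.0499% at 0 h to 0.0107% at 1 h, an odds ratio of 0.214 (0.0551 to 1.21), which did not pass (Fisher exact test, adjusted p = 0.192). In this comparison, 12.4% of the genes passed in either direction. From 1 h to 4 h with TTP-AA, the change from 10 to 0 cDNAs did not pass (Fisher exact test, adjusted p = 1). This test could not show a fall, because the 4 h list held only 1000 3′UTR cDNAs (odds ratio interval 0 to 41.8). Socs7 entered it through the 1 h list alone.

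Socs5, which like Socs4 has been linked to receptor tyrosine kinase signalling, had 4 TTP-AA cDNAs at 1 h (interval 1.09 to 10.2), all from 862 to 872 nt after the stop codon at its only heptamer (858 to 864 nt). The gene (ENSMUSG00000037104.9) lies on chromosome 17 from 87107679 to 87137839 on the plus strand. A further 2 cDNAs lay in its 5′UTR in the TTP list at 1 h.

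Socs2, Socs4 and Cish were without a listed site, and their 3′UTRs nevertheless contained the motifs. Cish encodes CIS, a STAT5-induced inhibitor, and Socs2 restrains growth hormone signalling. The stretches around the heptamers of these genes are shown for comparison with Socs3.
Cish, around 855 nt after the stop codon, chr9:107301377-107301405, plus strand: tatacagtATTTATTTATTTAttctcctt
Socs2, around 577 nt after the stop codon, chr10:95412062-95412090, minus strand: gaccatgcttgtATTTAtccctcgtctta
Socs4, around 2621 nt after the stop codon, chr14:47293527-47293555, plus strand: gtaaaactaagtATTTAtatgaaagtcaa
Cish holds 3 overlapping heptamers in this stretch, which include 2 copies of the nonamer TTATTTATT. Socs4 holds 17 pentamers in a 3′UTR of 5182 nt, more than any other member, and Socs2 holds 2 in 1163 nt. The map of all 8 3′UTRs shows that the number of pentamers did not order the members by cDNAs, since Socs4 with 17 and Socs6 with 10 had 0 and 2, while Socs3 with 4 had 119. Of all 21028 genes with a 3′UTR, 4468 had at least 1 3′UTR cDNA with TTP-AA at 1 h. The share with such a cDNA was 27.8% of the genes with a pentamer in the 3′UTR and 33.8% of those with a heptamer. For the nonamer, this share was 35.0% of 1610 genes. The overlapping pair of heptamers of Socs3, read as 1 motif, occurred in the 3′UTRs of 29 of 21028 genes. Of these, 11 (37.9%) had a cDNA in the TTP-AA list at 1 h, and Socs3 had the most, with 105 compared with 35 for Ncoa2. This motif was read from the Socs3 stretch after its sites were seen, so the rank of Socs3 is only a description.

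**Figure D4:**
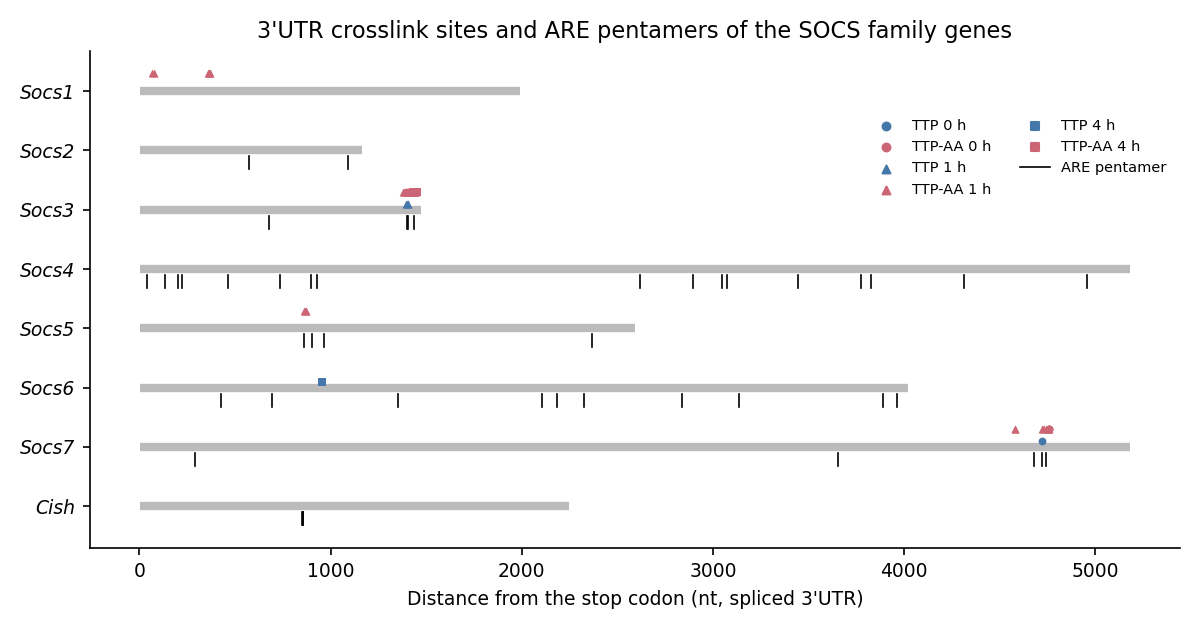
Crosslink sites (symbols, TTP in blue and TTP-AA in red, with the shape giving the time of LPS) and ARE pentamers (black ticks) along the spliced 3′UTRs (grey bars) of the 8 genes, by distance from the stop codon in nt. Socs3 sites gather at the end of the 3′UTR, and Socs2, Socs4 and Cish carry pentamers but no site.

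Socs6, whose protein has been linked to signalling by the receptor tyrosine kinase KIT, had 2 cDNAs in the TTP list at 4 h (interval 0.242 to 7.22) and 0 in the other lists. They lay at 953 and 954 nt after the stop codon and without a pentamer within 50 nt. The gene (ENSMUSG00000056153.15) lies on chromosome 18 from 88665224 to 88927481 on the minus strand, and its 3′UTR of 4019 nt holds 10 pentamers.

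Across the family, a pentamer lay within 20 nt of 115 of the 127 TTP-AA 3′UTR cDNAs at 1 h (90.6%), compared with 40.7% over all 3′UTRs in that list. Of these 115, Socs3 had 104. Of the other members at that time, Socs5 had a pentamer near 4 of 4, Socs7 near 7 of 10 and Socs1 near 0 of 8.

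The other genes of the pathway were followed with a list of 66 genes, made of ligands, receptors, kinases, STATs, other inhibitors and the cullin partners of SOCS box proteins. Of these, 33 had a 3′UTR cDNA at 1 h and 12 had enough to be tested between the proteins. On the scale of 3′UTR cDNAs, 0 of the 12 passed (Fisher exact test with Benjamini-Hochberg adjustment), and 1, Ptprc, had an unadjusted p under 0.05. Of the 12, 6 had 0 TTP cDNAs and at most 34 TTP-AA cDNAs. For genes with 0 TTP cDNAs, 65 TTP-AA cDNAs were too few to pass and 66 were enough. The test could therefore not call these 6 genes in either direction. Among all genes tested 6.39% passed, so that a count of 0 among 12 does not set the list apart. Per all cDNAs, 12 of 12 were higher with TTP-AA, on the scale where 84.9% of all genes tested were. The median log2 share ratio was 1.04 for the 12 genes and 1.23 for all 2065 genes tested. These medians depend on the pseudocount, since 6 of the 12 genes and 1140 of the 2065 had 0 TTP cDNAs.

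Csf1, the growth factor of macrophages, had the most cDNAs of the list at 1 h, with 9 for TTP and 144 for TTP-AA (Fisher exact test on 3′UTR cDNAs, adjusted p = 0.490). Osm, which encodes the gp130 cytokine oncostatin M, had 0 and 34, too few to pass (Fisher exact test, adjusted p = 0.318). Among the inhibitors, the phosphatase gene Ptprc (CD45) had 12 and 50 cDNAs (Fisher exact test, adjusted p = 0.133). The ubiquitin ligase gene Cbl had 2 and 48, and the STAT inhibitor gene Pias2 had 3 and 40 (Fisher exact test, adjusted p = 0.658 and 0.850). Of the receptors, 11 of 22 had a cDNA and 4 were tested, which were Il10ra (0 and 15), Il10rb (2 and 30), Ifngr2 (0 and 29) and Csf1r (4 and 26). Of the 4 kinases, Jak1 had 0 and 3, and of the 8 STATs, Stat3 had 0 and 9 and Stat5a 0 and 3. The cullin gene Cul5, whose product carries the SOCS box ligase, had 0 and 9. Il6 and Il10 had 0 cDNAs in all lists. In the scatter of all genes at 1 h, Socs3 stands close to Csf1 and above the line of equal shares, whereas Ptprc stands below it. The log2 share ratio of Socs3 was 0.97, below the median of 1.23 over all genes tested, which depends on the pseudocount.

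**Figure D5:**
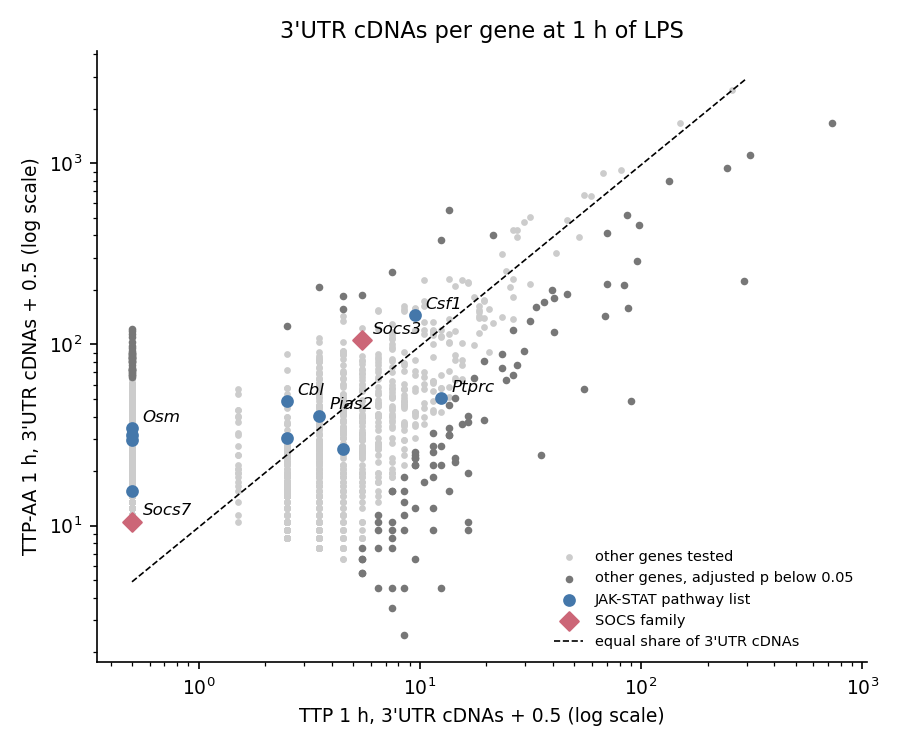
3′UTR cDNAs plus 0.5 per gene in the TTP list (x axis) and the TTP-AA list (y axis) at 1 h, both on log scales, for the 2065 genes tested, with the pathway list in blue, the SOCS genes tested (Socs3 and Socs7) as red diamonds, and a dashed line at equal shares of 3′UTR cDNAs. Socs3 (5 and 105) and Socs7 (0 and 10) lie above the line among genes that did not pass the threshold. Any tested gene with 0 TTP cDNAs, such as Socs7, lies above the line because of the minimum of 10 cDNAs and the added 0.5.

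The macrophage markers Csf1r, Adgre1 (F4/80), Itgam (CD11b), Cd68, Lyz2 and Cd14 were all bound in their 3′UTRs by TTP-AA at 1 h, with cDNAs from 3 for Cd68 to 143 for Lyz2. In the TTP list at 1 h, 3 of the 6 had cDNAs. Zfp36, the gene of TTP, is not a check of the knockout, because the vector supplies its coding sequence, without the 3′UTR as the methods describe it. The Zfp36 3′UTR had 21 cDNAs with TTP and 131 with TTP-AA at 1 h, and the part of transcripts from the disrupted gene in these counts was not tested.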

How the data were processed

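The deposited lists give 1 score per site, which is the number of distinct cDNAs and is negative for the minus strand. The authors removed PCR duplicates by random barcode, mapped reads with Bowtie to mm10 with Ensembl 75, added up the libraries within each group, and retained sites at a false-discovery rate of 0.05 in iCount (100 permutations, neighbourhood 15 nt). Only the headers of the 1 h lists carry a mark for taking regions as one.

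Sites were assigned with Python 3.11.15 and GENCODE M21 in the order 3′UTR, CDS, 5′UTR, intron. Coordinates are 1-based, and distances refer to the transcript with the longest 3′UTR. Release M21 is later than the authors' annotation. For genes with at least 10 cDNAs over a pair of lists, a two-sided Fisher exact test (scipy 1.17.1) compared their cDNAs with all other 3′UTR cDNAs, with adjustment by Benjamini-Hochberg, threshold 0.05. Log2 ratios used a pseudocount of 0.5. Intervals cover counting error only. The test was checked on simulated lists drawn without spread between libraries, so the check does not cover such spread. Members and lists were chosen with earlier results of these data known. Named genes were the 8 members, the 5 pathway genes with most 1 h cDNAs or any past the threshold, the markers and the 3 nearest profiles. Agpat1, Ncoa2, Zfp36 and the other pathway genes given with values were named after their values were seen.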

Additional observations from a re-analysis of the deposited data

Results flagged for a closer look

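From 1 h to 4 h of LPS, the share of Socs3 among 3′UTR cDNAs had changes of opposite sign with the 2 proteins, of which that with TTP lies within counting error. With TTP-AA it rose by 0.788 percentage points, from 105 to 9 cDNAs in lists of 93510 and 1000 3′UTR cDNAs. With TTP the change was -0.0523 percentage points, from 5 cDNAs to 0 (Fisher exact test, unadjusted p = 1, with an upper Wilson limit of 0.422% at 4 h). The difference between the proteins was not tested, and the TTP list at 4 h had 906 3′UTR cDNAs. Scaled to 1000000 cDNAs of the list, the change with TTP-AA did not pass and TTP was below the minimum for testing.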

How the results depend on the processing

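No paired analysis was possible because the lists are sums over libraries and carry no replicate numbers, and for the same reason no replicate could be left out. The main counts of members passing the tests were 0 of 2 tested for TTP-AA against TTP at 1 h, 0 at 4 h, where no member reached the minimum, and 1 (Socs3) for TTP-AA both at 1 h against 0 h and at 4 h against 1 h. In the main test between the proteins at 1 h, Socs7 had too few cDNAs to pass. Between the proteins at 1 h, 2 members passed with all cDNAs as denominator, as did 1763 of 2065 genes, and 1 with whole gene bodies, as did 1838 of 2926 genes. Between the proteins at 4 h, 1 passed with a minimum of 5 cDNAs, as did 51 of 78 genes. For TTP-AA at 1 h against 0 h, Socs3 met the minimum of the main test through the 1 h list alone. In this step, 0 members passed with each site counted once, where 174 of 1867 genes did. With sites of at least 2 cDNAs 0 passed as well, where 90 of 806 genes did. For TTP-AA at 4 h against 1 h, 0 members passed with all cDNAs, sites of at least 2 cDNAs or whole gene bodies. Of all genes, 276 of 1980, 19 of 778 and 313 of 2695 passed with these settings. The other alternatives left these counts as they were.

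Between the proteins at 1 h, the log2 ratio of Socs3 turned from 0.97 to -0.041 with each site counted once. For TTP-AA at 4 h against 1 h, that of Socs3 turned from 3.07 to -0.29 with all cDNAs, and that of Socs7, which rests on 0 cDNAs at 4 h and the pseudocount, from 2.15 to -1.21 with all cDNAs and to -0.52 with whole gene bodies. The number of all genes passing between the proteins at 1 h was 132 of 2065 tested, with a range of 64 to 1838 over the alternatives. It was 74 of 241 (31 to 195) at 0 h and 17 of 25 (7 to 133) at 4 h. Over time it was 131 of 276 (47 to 412) and 34 of 170 (14 to 205) for TTP. For TTP-AA it was 255 of 2052 (90 to 583) and 62 of 1980 (19 to 313). The alternatives did not all test the same number of genes.

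The share of TTP-AA cDNAs of the family with a pentamer nearby at 1 h was 90.6%, and it was 75.6% within 10 nt, 80.3% by sites and 59.1% for the heptamer. The share of TTP-AA sites near a TTP site was 37.7%, and it was 6.56% at the same nucleotide, 63.9% within 50 nt and 72.2% for sites of at least 2 cDNAs. With all cDNAs, 12 pathway genes passed instead of 0, where 6 of the 12 had too few cDNAs to pass in the main test. The 127 TTP-AA cDNAs of the family at 1 h lay at 61 sites and were 84 at sites of at least 2 cDNAs, where the 5 TTP cDNAs became 2. The causes of these changes were not tested. The counts of Socs1, Socs5, Socs6 and Socs7, at most 10 in a list, set the limit on any comparison of these genes.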
